A study of Oncorhynchus kisutch with 9 samples.

Results

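Liver RNA of growth hormone transgenic coho salmon on full ration (T) was set directly against liver RNA of growth hormone transgenic coho salmon that were ration-fed (R). Of the 9 two-colour arrays in the series, 3 hold these pools in their 2 channels, chosen by the Cy3 and Cy5 source labels: arrays 1 and 2 have T in Cy5, and array 3 has T in Cy3. The other 6 arrays set each transgenic pool against a pool of non-transgenic control fish (C). Each pool was made from equal amounts of adult liver RNA of 5 fish, and every labelling started from 20 ug of total RNA. All fish were adult coho salmon (Oncorhynchus kisutch), T and R carry a growth hormone transgene, and ration is the labelled difference between T and R. The sources used here give neither the promoter of the transgene nor the sex of the fish, and they do not say how much either group ate.

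Growth hormone acts on the liver through its receptor and the JAK-STAT pathway, and the liver answers by releasing insulin-like growth factor 1, which drives growth of the body. Fish with an added growth hormone gene eat more as well as grow faster. Comparing T with R asks which liver transcripts differ with ration when both pools carry the transgene.

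Because a condition is 1 pool, the 3 arrays are repeat hybridisations of the same 2 RNAs. An SD here covers the spread of hybridisations, which includes any difference between the 2 dye orders. It is therefore not the error of a mean that balances the dye orders. No value covers variation between fish, so no test of ration was made. A change in the make-up of liver cells and a change of RNA per cell cannot be told apart in whole liver. Values are log2 ratios of spots on a salmonid cDNA microarray, where each cDNA appears to have been spotted in neighbouring columns. Spots are named by their identifier, and a spot pair by that of its first spot. The sources used here do not state which dye is the numerator, so which pool is higher was not settled. Direction 1 (written positive) means that T exceeded R if the ratios are Cy5 over Cy3, and that R exceeded T if they are Cy3 over Cy5. Direction 2 (written negative) is the opposite side.

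The arrays carried a strong dye trend, meaning that spots with a high ratio on one array were high on all, whatever RNA was in which channel. As deposited, the medians were -0.99, -0.59 and -1.05 on arrays 1, 2 and 3. Arrays 1 and 2 correlated at r = 0.836 across spots, and array 3, in the opposite dye order, still correlated with them at 0.414 and 0.341. A profile of the trend was estimated without these 3 arrays, as the midpoint of the 2 dye orders in the other 6. A smooth curve of each array's own values on this profile was then subtracted from that array, so the curve was fitted to the array it corrects. Array 3 then correlated with arrays 1 and 2 at -0.389 and -0.407 in dye order, and so at 0.389 and 0.407 once turned to T over R, while arrays 1 and 2 correlated at 0.559. A curve on the mean of all 9 arrays, which includes these 3, gave 0.588 and 0.575 across the dye orders and 0.476 between arrays 1 and 2. Values of single pairs and genes given below with the dye trend removed use the 9-array curve unless the 6-array one is named. Spots are not independent replicates, so these correlations are descriptions. The slope of the centred arrays on the dye profile of the 6 other arrays was 1.17 on array 1, 0.93 on array 2 and 0.73 on array 3. The slopes were thus unequal, and any difference between T and R that tracks the profile is part of them.

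In the main measure each array was centred on its median, turned to T over R, and the arrays of like dye order were averaged before the 2 orders. This dye-balanced mean cancels a dye effect that is equal on all arrays. The full-ration and ration-fed transgenic livers differed little at most spots by this measure. The median size of the ratio over 8736 spots was 0.18 on the log2 scale, or 1.13-fold, and 95% of spots lay below 0.63. A spot was called where the mean reached 2-fold and all 3 arrays had its sign. By that rule 87 spots (0.996%) were called, 63 in direction 1 (0.721%) and 24 in direction 2 (0.275%). The sign rule removed 4 of the 91 spots whose mean was at least 2-fold.

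The differences found were moderate. The median size among called spots was 2.21-fold, with quartiles of 1.06 and 1.28 on the log2 scale, and the largest was 4.80-fold. Most called spots thus lay close to the 2-fold limit. Just inside it were pair 9041209 with a pair mean of -1.002 and pair 1040511 with 1.002, and just outside were pair 1040409 with -0.9995 and pair 8030713 with 0.999. In each of these 4 pairs 1 of the spots was called.

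The excess of direction 1 depended on how the arrays were scaled. The share of called spots in direction 1 was 72.4%, with a 95% exact binomial interval of 61.8% to 81.5% that treats spots as independent, which the spots of a pair are not. It was 59.8% with the dye trend of the 9 arrays removed and 59.3% with the trend of the 6 other arrays removed. The first of these settings called 87 spots (0.996%), 52 in direction 1 (0.595%) and 35 in direction 2 (0.401%). The second called 86 (0.984%), 51 in direction 1 (0.584%) and 35 in direction 2 (0.401%). Each shared 69 spots with the calls on centred arrays. With the spread of the arrays made equal the share was 53.1%, and without centring, which shifts the median of all spots by 0.13, it was 91.1%. Removing the dye trend also takes out any difference between the pools that tracks it. Spots at 2-fold by the ratio from the other 6 arrays are split by direction under Other observations.

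Called spots were concentrated where the dye trend was high. When all spots were ranked by their mean over the 9 centred arrays in dye order, the highest quartile held 62 of the 87 called spots, the next 23, the next 2 and the lowest quartile 0. The highest quartile had a call rate of 2.84% and a median ratio size of 0.26, against 0 calls and 0.14 in the lowest. The called spots numbered 69, 16, 2 and 0, once the dye trend was removed, from the highest quartile to the lowest. The dye-balanced T over R mean rose with the dye profile of the 6 other arrays by 0.16 per unit (r = 0.249 across spots). By arithmetic this slope restates the unequal slopes of arrays 1, 2 and 3 on the same profile, given above. Whether it reflects an uneven dye trend or a difference between the pools that tracks the profile was not tested. The T over R ratio computed from those 6 arrays rose with the dye profile of the 3 T over R arrays by a similar 0.18 per unit (r = 0.252). Spot brightness is not in the values used here, and its part in this pattern was not tested.

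**Figure D1:**
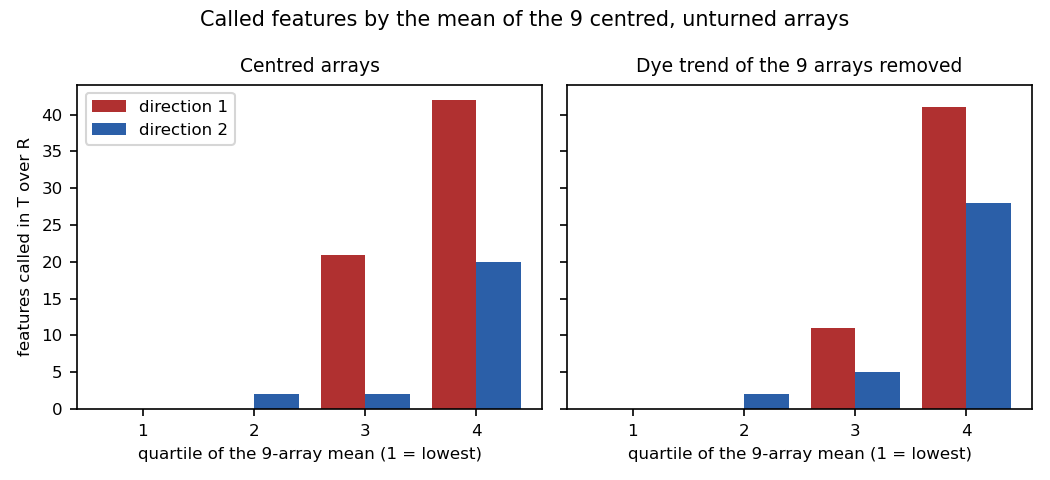
Number of spots called in T over R (y axis) by quartile of the mean of the 9 centred arrays in dye order (x axis, 1 = lowest), in direction 1 (red) and direction 2 (blue), for centred arrays (left) and with the dye trend removed (right). In both panels the highest quartile holds most called spots, 62 of 87 on the left and 69 of 87 on the right.

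Duplicate spots gave the same differences. Across the 4368 spot pairs the T over R means of the 2 spots correlated at 0.835, with a median gap of 0.11. The called spots fell into 31 pairs with both spots called, 21 in direction 1 and 10 in direction 2, and 25 pairs with 1 spot called, 21 in direction 1 and 4 in direction 2. In those 25 pairs the uncalled spot lay on the same side in 25, with a median size of 0.91 (range 0.56 to 1.04) beside 1.05 for its called neighbour. Where both spots were called they differed from each other by a median of 0.06 and at most by 0.32.

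In direction 1 a group of 4 pairs stood above the others, with ratios of about 4-fold. Pair 11020205 had log2 ratios of 2.87, 3.02 and 1.38 on arrays 1, 2 and 3, with a dye-balanced mean of 2.17 ± 0.91 (SD over 3 arrays), or 4.49-fold. With the dye trend of the 9 arrays removed the same arrays gave 2.02, 2.35 and 1.96, and with that of the 6 other arrays 2.06, 2.38 and 1.90. Array 3 was the lowest each time, and with the trend removed all 3 arrays lay well beyond 2-fold.

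Pair 8040601 had 2.79, 2.65 and 1.58 on the 3 arrays, a mean of 2.15 ± 0.66 and a 4.43-fold difference. Pair 9011105 had 2.98, 2.69 and 1.45, a mean of 2.14 ± 0.81 and a 4.41-fold difference. For pair 3040405 the array values were 2.86, 2.33 and 1.41, with a mean of 2.00 ± 0.73. Array 3 was the lowest array at these pairs too, and array 1 the highest. With the dye trend removed their means were 1.99 ± 0.27, 2.06 ± 0.05 and 1.86 ± 0.19, so the SD of each was smaller than on the centred arrays. The 6-array trend gave 2.03 ± 0.44, 2.06 ± 0.05 and 1.86 ± 0.20.

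The next pairs in direction 1 fell off quickly. Pair 12030405 had array values of 1.55, 2.08 and 1.34, with a mean of 1.58 ± 0.39 (2.98-fold). Pair 4030603 had 2.19, 2.12 and 0.75, with a mean of 1.45 ± 0.81 (2.74-fold). The other 4 pairs of the 10 largest were 12011311, 4021001, 2020205 and 9040613, with means of 1.34, 1.29, 1.23 and 1.21. The remaining 11 pairs of direction 1 had means between 1.03 and 1.20.

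In direction 2 pairs 7011209 and 3010405 had the largest ratios, and the other 8 had means of -1.28 or closer to 0. Pair 7011209 had -1.09, -1.34 and -2.89 on arrays 1, 2 and 3, with a mean of -2.05 ± 0.97 (4.15-fold). After removal of the 9-array dye trend the 3 arrays stood at -2.04, -2.00 and -2.00, and after removal of the 6-array trend at -2.02, -1.99 and -2.01. Pair 3010405 had -0.64, -1.14 and -2.71, with a mean of -1.80 ± 1.08 (3.48-fold), and -1.64, -1.77 and -1.65 with the trend removed. Here array 3 was the farthest from 0 on centred values, the reverse of direction 1.

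Pair 9041105 was the exception among the 10 pairs of direction 2. Its array values were -1.35, -1.59 and -1.10, with a mean of -1.28 ± 0.25 (2.44-fold), the lowest SD of the 31 pairs and the only one of the 10 in which array 3 was not farthest from 0. The other 7 pairs of direction 2 were 7010603, 1020603, 6040601, 6020413, 9020301, 7010301 and 11010409, with means of -1.27, -1.18, -1.17, -1.16, -1.11, -1.07 and -1.04. Their values on array 1 ran only from -0.33 to -0.09, so none of them reached 1.5-fold on that array.

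**Figure D2:**
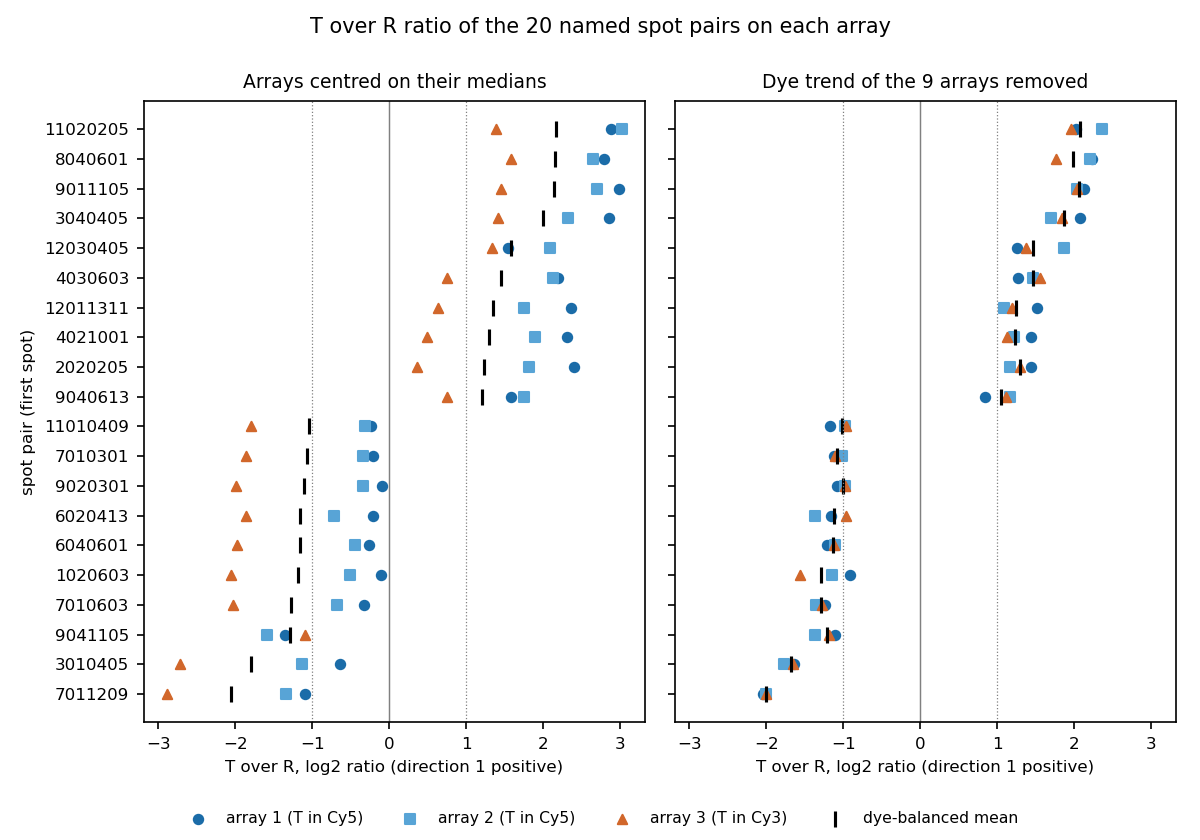
T over R log2 ratio (x axis, direction 1 positive) of the 10 pairs with the largest mean in each direction (y axis, first spot of the pair), on array 1 (dark blue circles), array 2 (light blue squares) and array 3 (orange triangles), with the dye-balanced mean as a black bar and dotted lines at 2-fold. On centred arrays (left) array 3 lies to the left of arrays 1 and 2 in 19 of 20 pairs, and with the dye trend of the 9 arrays removed (right) the 3 arrays lie closer together.

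At the 31 pairs with both spots called, the median value of array 3 lay apart from those of arrays 1 and 2 on centred values. Array 3 is the only array with T in Cy3, so array and dye order cannot be told apart here. A dye effect equal on all arrays cancels in the dye-balanced mean by construction. The pairs were chosen by that mean, so their values do not extend to all spots. Over the 21 pairs of direction 1 the median array value was 2.15 and 1.88 on arrays 1 and 2 and 0.52 on array 3, and over the 10 pairs of direction 2 it was -0.26, -0.60 and -1.98. With the dye trend removed these medians were 1.27, 1.22 and 1.14 in direction 1 and -1.16, -1.25 and -1.15 in direction 2. The median SD of the 31 pairs over the 3 arrays was 0.90 on centred arrays and 0.13 with the trend removed, and 30 of the 31 were at least 2-fold in both. The exception was pair 12030813 at 0.92. The trend of the 6 other arrays gave medians of 1.30, 1.23 and 1.14 in direction 1 and -1.17, -1.21 and -1.17 in direction 2. Its profile does not draw on arrays 1 to 3, but the curve removed from each array was fitted to that array's own values. The median SD was then 0.15, and 28 of the 31 pairs were at least 2-fold, the lowest having a size of 0.988.

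Array 3 carries the whole opposite dye order, and the centred values depended on it. Without array 3 the 10 pairs of direction 2 had sizes of 0.22 to 1.47 with a median of 0.41, against a median of 1.17 with all arrays, and 2 of them remained at 2-fold. The 21 pairs of direction 1 then had a median of 2.01, against 1.20. Once the dye trend was removed, leaving out array 3 gave medians of 1.19 in direction 2 and 1.24 in direction 1. Without array 3 the rule called 842 spots, 98.8% of them in direction 1, where the dyes no longer cancel, and 95 spots with the dye trend removed.

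The other 6 arrays give a second measurement of the same 2 pools. Subtracting the dye-balanced R over C ratio from the dye-balanced T over C ratio yields T over R through the control pool, with no array in common with the direct measurement. The pools are the same, so this repeats the hybridisation and not the fish. The spots called on the direct arrays came back at nearly the same size. All 87 lay on the same side by the indirect ratio, where 71.5% of all 8736 spots did. At least 1.5-fold on that side was reached by 85 of the 87 (97.7%), against 6.82% of all spots, and at least 2-fold by 57 (65.5%), against 1.10%. The median indirect size of the called spots was 2.10-fold, beside their direct 2.21-fold.

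Among the 31 pairs with both spots called, the direct ratio was between 83.4% and 135% of the indirect one, with a median of 102%. The gap between the 2 measurements had a median size of 0.09 and a highest value of 0.31. Over all pairs the SD of the gap was 0.19, which is not the same measure as a median size. Pair 11020205 had 2.17 directly and 2.27 indirectly. Pair 9011105 had 2.14 and 2.35, the highest indirect value of any called pair. For pair 7011209 the measurements were -2.05 and -2.02, and for pair 3010405 they were both -1.80. The widest gap belonged to pair 12011311, with 1.34 and 1.03. The indirect ratio was below 2-fold in 5 of the 31 pairs and lowest in pair 12030813, at 0.76 beside a direct 1.03.

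**Figure D3:**
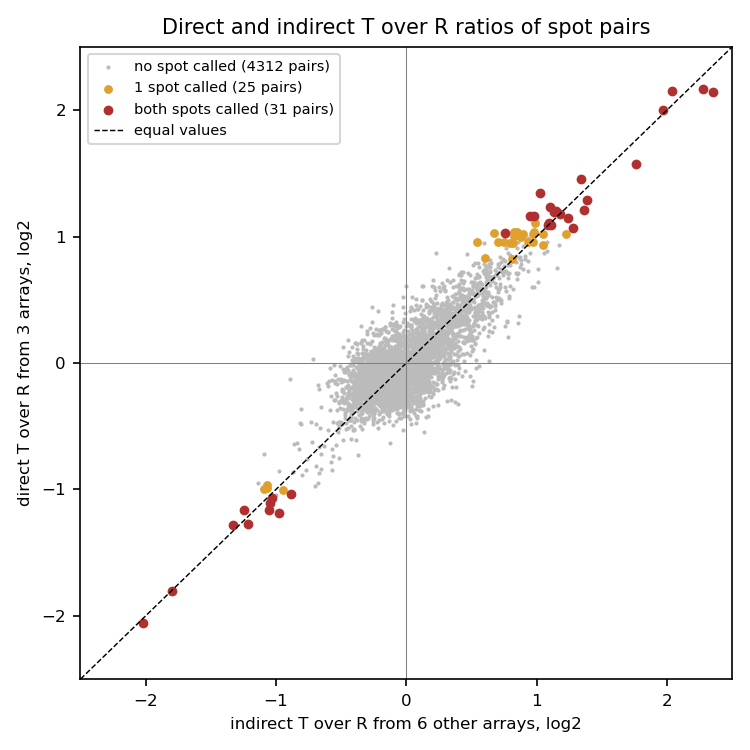
Direct T over R log2 ratio from the 3 arrays (y axis) against the indirect ratio from the 6 other arrays (x axis) for 4368 spot pairs, with grey for no spot called, orange for 1 spot called (25 pairs) and red for both (31 pairs). The red points lie along the dashed line of equal values, and the grey points form a cloud around 0. Over all pairs, called or not, the direct and indirect ratios correlated at r = 0.801 (Spearman 0.648).

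The control pool shows which of the transgenic pools lay away from it at these pairs. These ratios share their pools with T over R, and T over C minus R over C must equal T over R apart from error, so they are given side by side with no test. Over the 21 pairs of direction 1 the median T over C ratio was 1.08 and the median R over C ratio -0.34. Over the 10 pairs of direction 2 the medians were -1.19 for T over C and -0.10 for R over C. T over C was at least 2-fold in 19 of the 31 pairs, against 2.88% of all 4368 pairs. R over C was at least 2-fold in 4 of the 31, against 0.939% of all pairs, and under 1.5-fold in 24 of the 31, against 97.2% of all pairs. T over C was the farther from 0 in 26 of the 31 pairs and R over C in 5. Since the 31 pairs were chosen by T over R, which these ratios share pools with, nothing is read from these counts.

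At some pairs the ration-fed pool lay near the control pool and the full-ration pool away from it. Pair 9011105 had a T over C ratio of 2.35 ± 0.96 and an R over C ratio of -0.008 ± 0.840 (SD over 3 arrays each). With the dye trend removed they were 2.16 ± 0.09 and -0.126 ± 0.044. Pairs 7010603, 6020413, 9020301 and 7010301 showed the same arrangement in direction 2. Their T over C ratios were -1.26 ± 1.04, -1.33 ± 1.10, -1.16 ± 1.24 and -1.12 ± 1.03, so that of pair 9020301 was below its SD. The R over C ratios, in the same order, were -0.05 ± 1.00, -0.08 ± 1.27, -0.11 ± 1.23 and -0.09 ± 0.96. With the dye trend removed the T over C ratios were -1.38 ± 0.05, -1.38 ± 0.08, -1.16 ± 0.08 and -1.24 ± 0.10. The R over C ratios were then -0.16 ± 0.02, -0.18 ± 0.16, -0.20 ± 0.11 and -0.20 ± 0.05.

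Other arrangements were seen as well. At pair 11020205, the largest of direction 1, the pools lay on opposite sides of the control, with 1.34 ± 0.90 for T over C and -0.94 ± 0.73 for R over C. At pairs 9041105 and 8011307 the ration-fed pool was the one away from the control. T over C was -0.13 ± 0.44 and -0.27 ± 1.07, and R over C was 1.20 ± 0.54 and -1.36 ± 1.13. R over C was also the farther from 0 at pairs 2020205, 12011311 and 5011205, though each ratio was below its SD on centred arrays. T over C was 0.24 ± 1.01, 0.47 ± 0.92 and 0.42 ± 0.91, and R over C was -0.86 ± 1.24, -0.56 ± 0.64 and -0.53 ± 0.81. With the dye trend removed T over C was 0.21 ± 0.15, 0.26 ± 0.15 and 0.26 ± 0.11. R over C was then -0.96 ± 0.13, -0.68 ± 0.33 and -0.65 ± 0.13. At pairs 1010605 and 2030909 both pools lay on one side of the control. Their T over C ratios were 2.60 ± 0.98 and 2.56 ± 1.17, and their R over C ratios 1.45 ± 1.17 and 1.45 ± 1.16. Pair 7011209 was of that kind in direction 2, at -2.84 ± 1.03 for T over C and -0.82 ± 1.21 for R over C. The R over C ratio of this pair was thus below its SD on centred arrays. With the dye trend removed its ratios were -2.89 ± 0.15 and -0.92 ± 0.09.

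**Figure D4:**
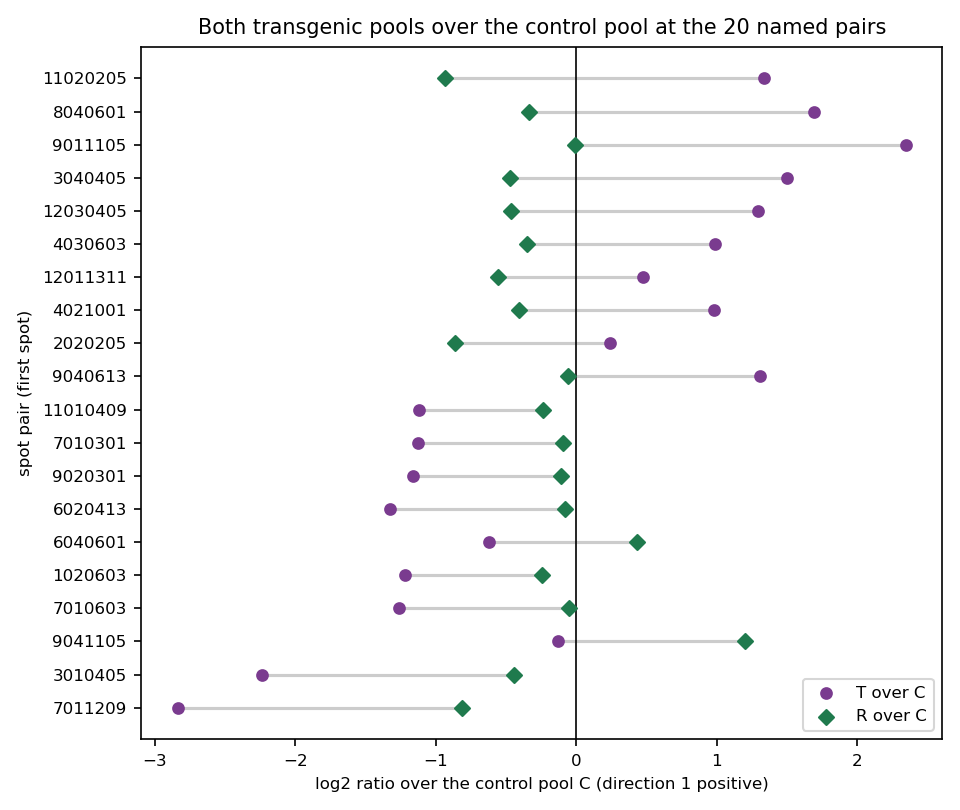
T over C (purple circles) and R over C (green diamonds) log2 ratios (x axis, direction 1 positive) at the 20 named pairs (y axis, first spot of the pair), with the control pool at 0. The length of each grey line is the indirect T over R ratio, and at pair 9011105 R over C lies at -0.008 while T over C lies at 2.35.

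Gene names were at hand for 8 of the 8736 spots, covering 4 genes with 2 spots each, so the largest differences above belong to unnamed cDNAs. The names come from the annotation table of the platform. All 4 symbols occur in the RefSeq gene table of coho salmon (Okis_V2), although none of the 4 gene identifiers does. None of the 4 genes was called by the rule of a 2-fold mean with the same sign on 3 arrays. No spot was named for hepatocytes, blood cells, pancreas, egg yolk proteins or the growth hormone axis, so the labelled tissue could not be checked against its markers.

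Col1a2, the gene of a chain of type I collagen in connective tissue, had the largest ratio of the 4 genes. Its spots had T over R means of 0.76 ± 0.87 and 0.61 ± 0.80 (SD over 3 arrays), in direction 1, beside indirect ratios of 0.62 and 0.63, and 94.7% or more of all spots had a smaller ratio. On array 3 the spots stood at 0.06 and -0.08, against 1.79 and 1.36 on array 1, whereas with the dye trend removed the arrays gave 0.94, 0.48 and 0.62 for one spot and 0.45, 0.58 and 0.67 for the other. limma on the pair mean over the 9 arrays, which has no size limit and tests hybridisations of these pools and not ration, gave col1a2 0.65 ± 0.11 (SE) with an adjusted p of 6.50e-06, and 0.61 ± 0.10 with an adjusted p of 0.000206 once the dye trend was removed. For tap1, pparg and pck2 its adjusted p was 0.0807, 0.327 and 0.492. The same model on single spots passed 1709 of 8736 at an adjusted p of 0.05, and 1564 with the dye trend removed. A low adjusted p is thus not particular to col1a2.

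Pparg, the nuclear receptor that drives fat storage in adipocytes of mammals, had means below their SD on centred arrays, as had col1a2, pck2 and tap1. Its array values were -0.09, 0.11 and 0.53 at one spot and -0.06, -0.03 and 0.29 at the other, with means of 0.27 ± 0.32 and 0.12 ± 0.20. The indirect ratios were 0.19 and 0.15. Array 3 was the highest at both spots, and the SD exceeded the mean at each. Its means were 0.31 ± 0.22 and 0.13 ± 0.13 with the dye trend removed, where neither was below its SD.

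Pck2, the mitochondrial phosphoenolpyruvate carboxykinase that makes phosphoenolpyruvate from oxaloacetate, split by dye order. The spots had 1.17, 0.79 and -0.60, and 1.06, 0.71 and -0.59, on arrays 1, 2 and 3. Their means were 0.19 ± 0.93 and 0.14 ± 0.87, and the indirect ratios lay on the other side at -0.06 and -0.05. With the dye trend removed the direct means were 0.16 ± 0.09 and 0.08 ± 0.08 and the indirect ratios -0.08 and -0.10, so the 2 measurements gave opposite sides for pck2.

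Tap1, part of the transporter that carries peptides to class I major histocompatibility molecules, had means in direction 2 that were smaller than their SD. The array values were -0.50, -0.47 and 0.07 at one spot and -0.36, -0.83 and 0.30 at the other, with means of -0.21 ± 0.32 and -0.15 ± 0.57. The indirect ratios were -0.25 and 0.02. Array 3 was on the side opposite to arrays 1 and 2 at both spots. With the dye trend removed it stood at 0.0019 and 0.23.

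**Figure D5:**
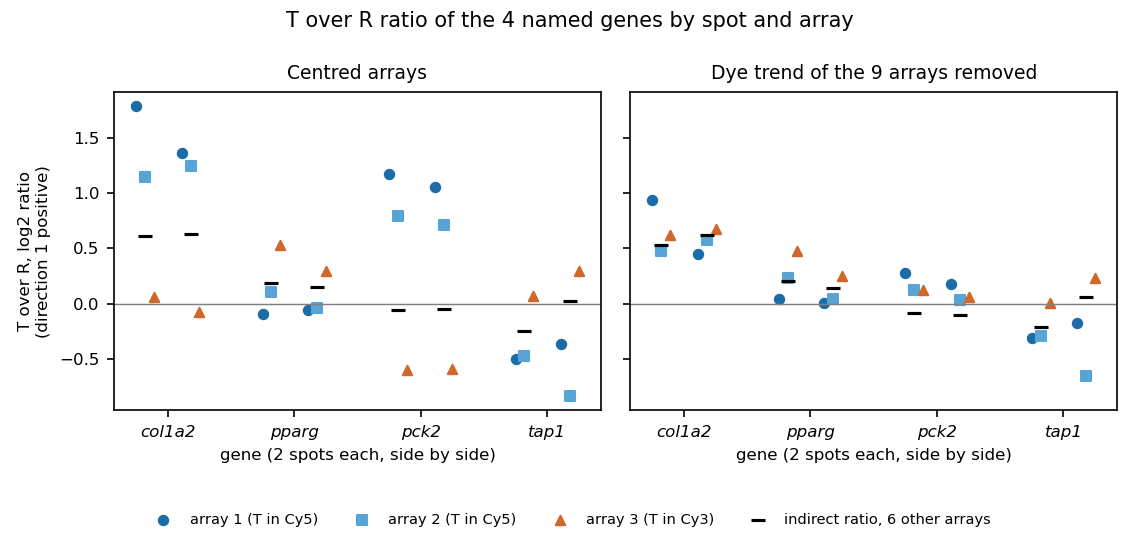
T over R log2 ratio (y axis, direction 1 positive) of the 2 spots of each of 4 named genes (x axis) on arrays 1 to 3, with the indirect ratio from the 6 other arrays as a black bar, for centred arrays (left) and with the dye trend removed (right). Col1a2 lies above 0 on all arrays in the right panel, with values of 0.45 to 0.94, while single arrays of other genes reach 0.47 (pparg) and -0.66 (tap1).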

How the data were processed

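The deposited table holds 8736 spots on 9 arrays and lacks no value. The deposited values were read as log2 ratios of the 2 channels. Raising 2 to the value gave a ratio of whole numbers with a larger term of at most 1000 in 981 cases out of 78624. Shifting the values slightly at random left 11 such cases, while base e gave 13 before and 13 after the shift and base 10 gave 15 and 16. The sources used here do not name the scanner, background treatment, normalization, filters or numerator dye, and no array median was 0. Per the labels, the 3 arrays of a comparison hold the same pools, 1 in the opposite dye order, and all hybridisations ran together. Arrays were centred, turned by dye label and averaged as described. Spot pairs rest on reading the identifiers as 48 print blocks of 13 rows and 14 columns. The dye trend was removed with lowess (fraction 0.3, 3 iterations, statsmodels 0.14.6) on the mean of the 9 arrays or on the profile of the 6 other arrays. limma 3.58.1 in R 4.3.3, over 9 arrays, with a dye term and 2 contrasts between pools, was an alternative that tests hybridisations of these pools. Named pairs are the 10 with the largest mean in each direction among pairs with both spots called, the 2 nearest the limit on either side, and the pairs of named genes. Other pairs, including 8011307, 1010605, 2030909, 5011205 and 12030813, were chosen after their values were seen. The comparison, its lists and its settings were chosen with earlier results of these data known. Of the fixed lists, 0 of 11 growth hormone axis, 1 of 7 glucose, 1 of 10 fat, 1 of 8 extracellular matrix, 1 of 6 antigen presentation, 0 of 8 hepatocyte, 0 of 4 blood cell, 1 of 5 connective tissue, 0 of 4 pancreas and 0 of 2 egg yolk genes had a named spot. Intensities were not used here, and the number of arrays limits the precision.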

Additional observations from a re-analysis of the deposited data

How the results depend on the processing

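The count of called spots, 87, was 158 with a plain mean of the 3 arrays, 369 at 1.5-fold and 12 at 2-fold on each array. Calling the 4368 pair means in place of the 8736 spots gave 42, a lower count from fewer units. limma (Benjamini-Hochberg adjusted p of 0.05 over all spots) has no size limit. Over the 9 arrays it gave 1709 of 8736 spots on centred values and 1564 with the dye trend of 9 arrays removed. Against a 2-fold limit limma gave 13 in each. On 3 averaged ratios, chosen after seeing the data, limma gave 1648 and 1429. Leaving out 1 array gave 89 to 842 spots, highest without array 3, and 86 to 95 with the dye trend of 9 arrays removed, also chosen after seeing the data. Direction 1 held 72.4% of the called spots, and 94.3% with plain means, 91.1% without centring, 84.3% at 1.5-fold, 53.1% with equal spread, 59.8% with the dye trend of 9 arrays removed and 59.3% with that of the 6 other arrays. Leaving out 1 array gave 66.3% to 98.8%, and 57.0% to 63.2% with the dye trend of 9 arrays removed. The share of called spots with an indirect ratio of at least 1.5-fold on the same side, 97.7%, was 35.4% with plain means and 68.3% at 1.5-fold, and 38.7% to 97.8% with 1 array left out, lowest without array 3. With the trend of 9 arrays removed that range was 95.3% to 97.8%. The cause of these changes was not tested, except that plain means and the loss of array 3 leave the dyes uncancelled by construction. Centred print blocks moved none of the 3 results past 1.5 times or its interval. A requirement for values on all 9 arrays changes nothing by construction, since no value is missing. The 20 named pairs with the largest means kept their side in all of 260 values under alternatives. Part of this was fixed in advance, since both spots of each pair were called for the same sign on all 3 centred arrays. Plain means, equal spread and the loss of 1 array on centred values could not change the side. Of 52 such values of the 4 genes, 2 lay on the other side of 0: pck2 with equal spread (-0.04) and pparg without array 3 (-0.02). No paired analysis was possible because each pool is 1 RNA and its arrays share no unit to pair. An intensity filter was not run, since the values are ratios, and signal over background is unknown here.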

Other observations

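The indirect ratio reached 2-fold at some spots that the direct arrays did not call. In total 96 spots (1.10%) reached it, of which 57 were called on the direct arrays and 39 were not. All 39 lay on the same side in the direct measurement, as did all 96, where 71.5% of all spots did. Direct sizes of the 39 ran from 0.20 to 1.02 with a median of 0.85, so most were not far below the limit. The same sign on all 3 direct arrays was seen in 31 of the 39, against 21.2% of all spots. The 39 were chosen by size and the shares over all spots cover any size, so nothing is read from the contrast. By quartile of the 9-array mean, from the highest to the lowest, the 96 spots numbered 66, 28, 2 and 0. In the same order direction 1 held 45, 24, 0 and 0 of them, and direction 2 held 21, 4, 2 and 0.

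Called spots were spread over the slide, though unevenly, as read from the identifiers. The 48 print blocks held 0 to 7 called spots each with a median of 2, and 10 blocks held none. Every row of blocks held some, from 2 to 11. The 4 columns of blocks held from 18 to 31, with a median of 19.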
